A study of Mus musculus with 36 samples.

Results

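The genes described here are 48 genes of DNA replication and nucleotide supply, read in the germ cells and the supporting cells of the fetal mouse gonad. Members were chosen by name and function. Each was read through a probe set that the platform annotation gives to 1 gene symbol, and where a gene had several such probe sets the one with the highest mean was used. All 48 were found among the 19938 genes so named on the array. The arrays are Affymetrix Mouse Gene 1.0 ST arrays, which read many exons of a gene together, and the values are on the log2 scale.

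The study profiled 12 groups of 3 samples: germ and supporting cells, from XX and XY fetuses, with TS13, TS24 and TS34 as stage labels. The labels place TS13 before, TS24 during and TS34 after the start of sexual differentiation. After pooling by sex, the gonads were trypsinised, and DAPI-stained cells were sorted by FACS. The 18 germ cell samples came from an Oct4 reporter in progeny of C57BL/6NJ on a mixed background. Supporting cells of all XX groups and of the XY TS13 group came from the Tg(Sry-EGFP)92Ei line in progeny of CD-1, whereas those of the XY TS24 and XY TS34 groups came from the Tg(Sox9-cre/ERT2)1Msan/J line in progeny of C57BL/6. Mouse line and condition therefore cannot be told apart in germ against supporting cells, in XY against XX supporting cells at TS24 and TS34, and in XY supporting cells between TS13 and the later stages. The XY against XX comparison of supporting cells at TS13, the XX supporting cells over the stages and all comparisons among germ cells lie within 1 labelled line. The labels do not say that the 3 samples of a group are separate pools, so the p-values rest on the spread between samples that may be technical repeats.

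A replicating cell first marks its origins with the origin recognition complex, onto which CDC6 and CDT1 load the MCM2 to MCM7 helicase. Geminin, the product of Gmnn, blocks CDT1 after loading. At the start of S phase CDC45, GINS and MCM10 activate the helicase, polymerase alpha-primase lays primers, polymerases epsilon and delta extend the strands with the PCNA clamp that RFC loads, and FEN1 and LIG1 join the lagging strand fragments. Ribonucleotide reductase, thymidylate synthase and thymidine kinase supply the deoxynucleotides, and many of these genes are known targets of E2F factors. In the fetal gonad XX germ cells enter meiosis, which begins with a round of DNA replication, while XY germ cells stop cycling, and the supporting cells become pregranulosa cells in the ovary and Sertoli cells in the testis.

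Marker lists fitted the sorted cell types. The mean of 10 germ cell markers lay between 8.98 and 10.09 on the germ cell arrays used and between 5.71 and 6.53 on the supporting cell arrays. The mean of 10 supporting cell markers lay between 8.71 and 9.60 in supporting cells and between 6.37 and 7.19 in germ cells. One array stood apart: XX germ TS24 replicate 3 had a germ marker mean of 5.75 and a supporting marker mean of 9.38. Its mean of 8 stromal and interstitial markers was also 9.38, against 6.13 to 7.22 on the other arrays. This array was left out of the fits, which leaves 2 arrays in that group and 35 in all. Array medians ran from 6.41 to 6.84. All 48 members passed the filter on dim genes, as did 17571 of the 19938 genes.

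Promoter windows of 300 bases, 250 before and 50 after the annotated start, were in the RefSeq table (build GRCm38.p6) for 39 of the 48 members. The windows were searched on both strands for the E2F words TTTCCCGC, TTTGGCGC, TTTCGCGC and TTTGCCGC, which can overlap one another, and for CCAAT, the NF-Y word. An E2F word was present for 14 of these 39 members (35.9%), against 2.61% of the 27025 genes in the table. The 14 were Mcm3, Mcm5, Mcm6, Mcm7, Cdc6, Cdt1, Orc1, Orc3, Gins3, Rfc3, Pola1, Pold1, Pole2 and Lig1, and in 9 of them a word lay wholly before the start. CCAAT was present for 24 of 39 members (61.5%), against 41.1% of all genes. The 180 bases before the start are shown for 5 genes on which the results below turn, with E2F words and CCAAT in capitals (on either strand, so that ATTGG and GCGGGAAA are also capitals). Where a gene had several windows, the one with the most E2F words in this stretch is shown.
Orc1 (chr4:108579274-108579453, plus strand): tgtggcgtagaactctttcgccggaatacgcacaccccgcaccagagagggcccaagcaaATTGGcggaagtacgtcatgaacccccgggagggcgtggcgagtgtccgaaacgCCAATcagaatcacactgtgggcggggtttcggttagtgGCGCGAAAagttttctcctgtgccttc
Cdc6 (chr11:98907971-98908150, plus strand): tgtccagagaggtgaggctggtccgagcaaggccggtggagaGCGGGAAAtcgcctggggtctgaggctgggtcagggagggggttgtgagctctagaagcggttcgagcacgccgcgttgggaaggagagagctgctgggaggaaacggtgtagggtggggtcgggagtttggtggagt
Mcm5 (chr8:75109329-75109508, plus strand): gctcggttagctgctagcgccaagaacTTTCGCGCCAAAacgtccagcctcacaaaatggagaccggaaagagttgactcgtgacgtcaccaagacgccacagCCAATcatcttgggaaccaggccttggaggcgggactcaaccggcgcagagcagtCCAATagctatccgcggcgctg
Mcm7 (chr5:138171884-138172063, minus strand): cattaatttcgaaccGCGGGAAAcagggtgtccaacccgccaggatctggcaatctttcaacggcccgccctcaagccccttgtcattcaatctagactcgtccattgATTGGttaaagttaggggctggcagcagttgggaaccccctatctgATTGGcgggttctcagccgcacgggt
Rrm2 (chr12:24708074-24708253, plus strand): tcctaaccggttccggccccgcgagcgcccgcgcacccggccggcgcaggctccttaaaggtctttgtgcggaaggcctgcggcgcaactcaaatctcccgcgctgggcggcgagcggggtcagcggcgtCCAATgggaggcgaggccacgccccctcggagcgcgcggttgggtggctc
Orc1 had an E2F word 27 bases before its start, Cdc6 had one at 138 bases and Mcm7 one at 165 bases. Another Mcm7 window, at a different annotated start, held CCAAT and none of the E2F words. Mcm5 had a pair of overlapping words at 153 and 149 bases, and the stretch of Rrm2 held CCAAT and none of the E2F words. A match describes these letters only.

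Germ cells carried the higher level of nearly every member. Averaged over sexes and stages, 46 of 48 members were higher in germ than in supporting cells, beside 32.9% of all genes tested, and 1 was lower, beside 20.3% (limma, adjusted p under 0.05 by Benjamini-Hochberg). The median difference was 1.29 on the log2 scale over the members and 0.08 over all genes. After quantile normalization 4365 genes of the whole array were higher and 5271 lower, against 5785 and 3560 in the values as deposited, and the members' counts were again 46 and 1. Mouse line moves with cell type in this comparison and its part was not tested. In bulk samples fewer cells in S phase and less RNA per cell cannot be told apart.

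Every role held members that were higher in germ cells. The largest difference was that of Prim1, the catalytic primase subunit. Its 17 germ cell arrays ran from 9.78 to 11.47 and the 18 supporting cell arrays from 6.57 to 8.98, so the cell types did not overlap. The difference was 2.88 ± 0.12 (SE), a fold of 7.38 (limma adjusted p = 1.22e-26). Pole, the catalytic subunit of polymerase epsilon, followed with 2.75 ± 0.08, a fold of 6.74 (limma adjusted p = 7.05e-33). Rfc4 of the clamp loader differed by 2.18 ± 0.10, Cdc45 by 2.08 ± 0.09, Gmnn by 2.05 ± 0.10, the single-strand binding subunit Rpa2 by 2.04 ± 0.09 and Mcm10 by 2.01 ± 0.08. All 6 helicase genes were higher, from Mcm6 at 1.09 ± 0.09 to Mcm3 at 1.91 ± 0.10, as were all 6 clamp and clamp loader genes, all 6 origin recognition genes and all 4 of polymerase alpha-primase. The differences were smaller for the deoxynucleotide genes other than Rrm2, the small subunit of ribonucleotide reductase. Rrm2 differed by 1.94 ± 0.10, Rrm1, the large subunit, by 1.10 ± 0.09, Tyms, thymidylate synthase, by 0.76 ± 0.09 and Tk1, thymidine kinase, by 0.48 ± 0.10.

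Gins2, a GINS subunit, was the member that went the other way. Its germ cell group means ran from 8.29 in XY TS34 to 8.76 in XX TS13, and its supporting cell means from 8.74 in XX TS34 to 9.44 in XY TS24, so the arrays of the cell types overlapped in part. It was lower in germ cells by 0.59 ± 0.09 (limma adjusted p = 2.7e-07), whereas the other GINS genes Gins1, Gins3 and Gins4 were higher by 1.70 ± 0.11, 0.58 ± 0.09 and 0.91 ± 0.09. Pole2, the accessory subunit of polymerase epsilon, was 0.23 ± 0.11 higher in germ cells and was the 1 member that did not pass (limma adjusted p = 0.0779).

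**Figure D1:**
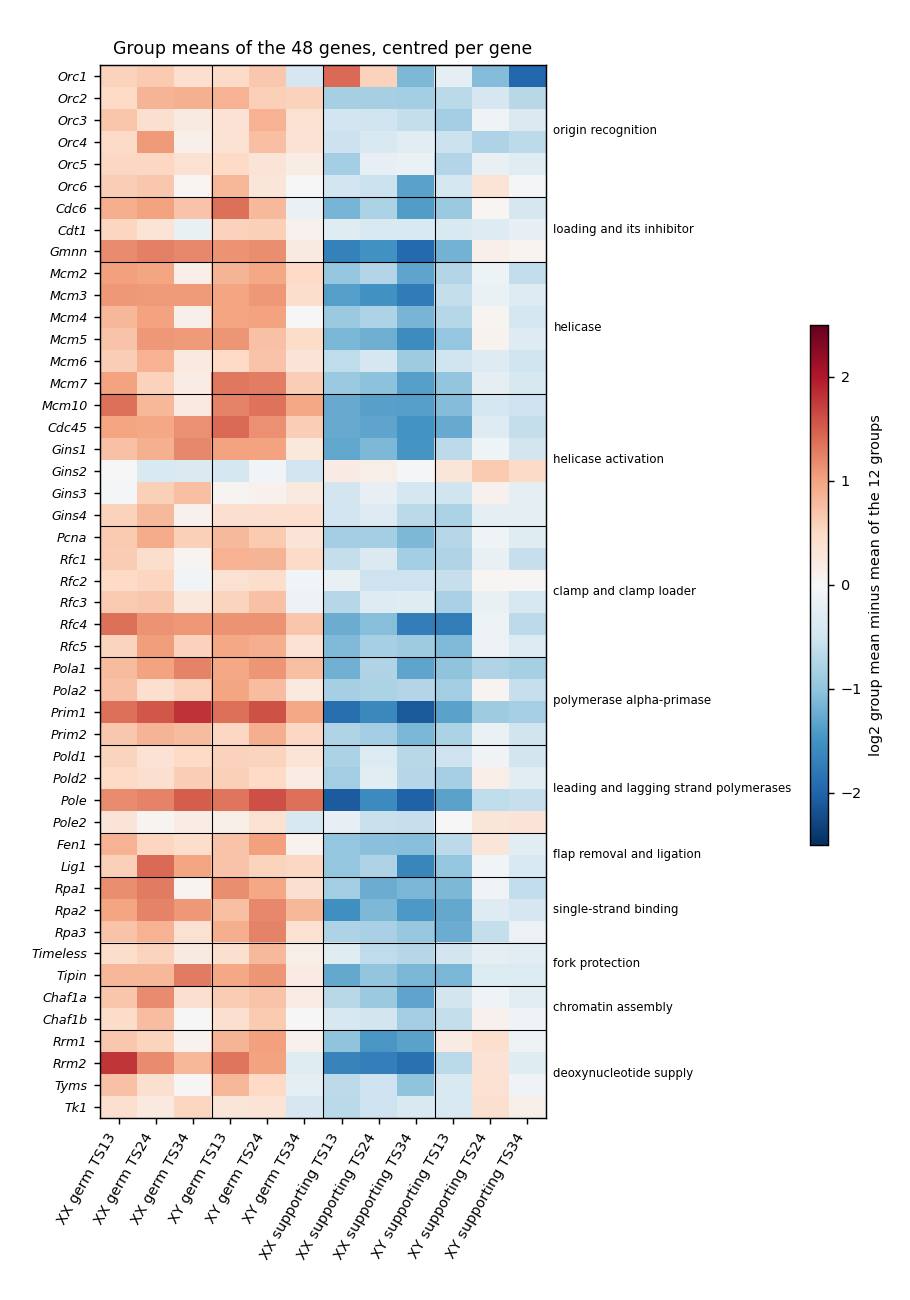
Heat map of the 48 genes (rows, ordered by role) in the 12 groups (columns). Colour gives the log2 group mean minus the gene's mean over the 12 groups, red above and blue below it, and horizontal lines part the roles. Germ cell columns are red for most genes, XX supporting columns are blue, and Orc1 and Gins2 depart from this pattern.

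The members ran together across the 12 groups. Set against the median of the other members, a gene's 12 group means had a median Pearson r of 0.957, and 37 of 48 members had r over 0.9. These correlations describe group means that share arrays and that are set largely by the step between the cell types. Pcna, the sliding clamp, followed the rest most closely with r = 0.994. In all, 46 members had their highest mean in a germ cell group, and 37 had their lowest in an XX supporting group, 26 of them at TS34. The 2 members with r under 0.5 were Gins2 (-0.58) and Orc1 (0.32). Within the 6 supporting cell groups Gins2 followed the other members (r = 0.989), whereas Orc1 (r = -0.44) and Orc4 (r = -0.94) ran against them.

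**Figure D2:**
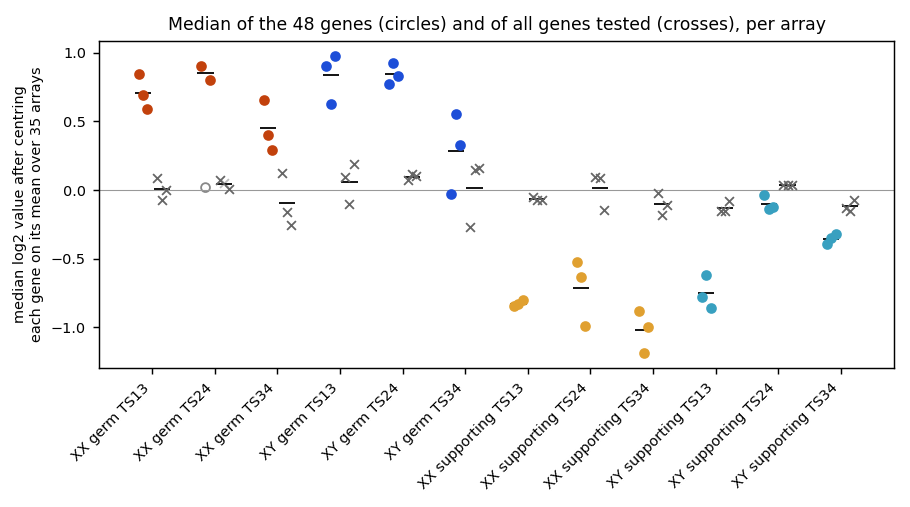
Median over the 48 genes (circles) and over all genes tested (crosses) on each array, after each gene was centred on its mean over 35 arrays; the axis is log2 and black lines are group means. XY supporting arrays lie near those of XX supporting cells at TS13 and above them at TS24 and TS34, the XY germ arrays drop at TS34, and the open circle is the array that was left out.

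A few of the members differed between XY and XX supporting cells at TS13, where both sexes came from 1 line. At this stage 4 members were higher in XY cells, beside 1.84% of all genes, and 1 was lower, beside 1.94%. Rrm1 read 9.72, 10.00 and 10.06 on the XY arrays and 8.86, 8.64 and 8.65 on the XX arrays. Rrm2 read 8.36, 8.86 and 8.82 in XY and 7.82, 7.14 and 8.11 in XX cells. Both ribonucleotide reductase genes were thus above every XX array on every XY array, by 1.21 ± 0.22 for Rrm1 (limma adjusted p = 0.000139) and by 0.99 ± 0.24 for Rrm2 (limma adjusted p = 0.00569). Mcm3 of the helicase was higher by 0.80 ± 0.23 and Pole by 0.73 ± 0.20, with adjusted p of 0.0351 and 0.0201 from limma. Orc1, the largest subunit of the origin recognition complex, was lower by 1.64 ± 0.23 (limma adjusted p = 1.5e-06). The median difference of the members was 0.12, against -0.06 over all genes, and 43 members were not called. Without replicate 1 or without replicate 2 of XX supporting TS13, 3 members were called. Over the whole array 323 genes were higher and 341 lower, and 566 and 353 after quantile normalization.

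At TS24 the XY supporting cells stood above the XX cells for most of the members. Here 26 were higher, beside 9.75% of all genes, and 1 was lower, beside 5.58%, with a median difference of 0.71 over the members and 0.04 over all genes. With 1 array left out at a time 20 to 30 members were called. Rrm2 read 10.30, 9.40 and 9.46 in XY cells and 7.88, 7.30 and 7.76 in XX cells. Gmnn read 8.73, 9.03 and 8.68 in XY cells and 7.74, 6.65 and 7.09 in XX cells. The sexes did not overlap for either gene, and the differences were 2.08 ± 0.24 for Rrm2 (limma adjusted p = 8.88e-10) and 1.65 ± 0.25 for Gmnn (limma adjusted p = 6.2e-07). Rrm1 differed by 1.88 ± 0.22, Mcm3 by 1.35 ± 0.23, the flap endonuclease gene Fen1 by 1.34 ± 0.23, Mcm5 by 1.32 ± 0.21 and Rpa1, the large single-strand binding subunit, by 1.14 ± 0.22. All 4 deoxynucleotide genes and both genes of flap removal and ligation were called. Of the 6 origin recognition genes Orc6 was higher by 0.88 ± 0.22 and Orc1 was lower by 1.65 ± 0.23, and the other four were not called. Neither fork protection gene was called, Tipin at 0.64 ± 0.25 (limma adjusted p = 0.085) and Timeless at 0.40 ± 0.20.

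At TS34, 27 members were higher in XY supporting cells, beside 8.24% of all genes, and Orc1 alone of the members was lower, beside 5.74%. The median difference was 0.75 over the members and -0.01 over all genes. With 1 array left out at a time 21 to 27 members were called, and the Orc1 call was lost in at least 1 of these runs. Gmnn showed the largest difference, with 8.71, 8.91 and 8.61 in XY cells and 6.97, 6.48 and 6.73 in XX cells. Its difference was 2.01 ± 0.25 (limma adjusted p = 5.69e-09). Rrm2 differed by 1.56 ± 0.24, Pole by 1.44 ± 0.20, Mcm3 by 1.43 ± 0.23, Orc6 by 1.31 ± 0.22, Prim1 by 1.28 ± 0.29, the ligase gene Lig1 by 1.26 ± 0.21 and Mcm5 by 1.25 ± 0.21. Tipin, which keeps stalled forks stable together with Timeless, passed here at 0.80 ± 0.25 (limma adjusted p = 0.0224), and both chromatin assembly genes did, Chaf1a at 1.04 ± 0.22 and Chaf1b at 0.78 ± 0.22. Over both stages 22 members were higher at each, 4 at TS24 alone and 5 at TS34 alone by the threshold; the change between these stages was not tested as a difference. The 16 members called at neither stage were Orc2, Orc3, Orc4, Orc5, Cdt1, Mcm6, Gins2, Gins3, Gins4, Rfc1, Rfc2, Rfc3, Pola1, Pold1, Pold2 and Timeless. Their intervals allowed sizeable differences in part. At TS24 Pola1, the catalytic subunit of polymerase alpha, differed by 0.00 with a 95% interval from -0.39 to 0.39. Cdt1 differed by 0.07 with an interval from -0.33 to 0.47. Not all of the 16 were this close: Rfc2 read 8.54, 8.01 and 8.08 in XY and 7.62, 7.60 and 7.73 in XX cells at TS24.

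The sorted XY and XX supporting cells differed in other ways beside these genes. Mouse line differed at TS24 and TS34 and cannot be told apart from sex. The germ marker mean was 5.97 to 6.07 in XY and 5.82 to 6.47 in XX cells at TS24, and 6.06 to 6.10 and 5.96 to 6.53 at TS34, so it was not higher in XY cells. Kit of the germ list was lower in XY cells at TS34, and Rec8 and Sycp3 of the meiotic entry list at TS24 and TS34. Of 10 supporting markers Sox9 was higher and Lhx9 and Fst lower in XY cells at all 3 stages. Amh was higher at TS24 and TS34, Nr5a1 higher at TS24 and Kitl lower at TS34. Of 5 erythroid genes measured 2 were higher in XY cells at TS24 (Hba-x and Alas2) and 1 at TS34 (Alas2), and the list's mean was 7.24 to 8.15 in XY and 6.37 to 7.58 in XX cells at TS24, and 6.94 to 7.10 and 6.26 to 7.29 at TS34. Of 7 stromal and interstitial markers tested, Pdgfra was higher and Nr2f2 lower in XY cells at TS13, Pdgfra and Postn were higher and Nr2f2 lower at TS24, and Postn was higher at TS34. The mean of the stromal list was 7.17 to 7.22 in XY and 7.08 to 7.17 in XX cells at TS13, and 6.86 to 7.05 and 6.66 to 7.16 at TS24. At TS34 it was 6.90 to 7.07 in XY and 6.73 to 6.76 in XX cells, so that every XY array lay above every XX array. No endothelial or macrophage marker was called between the sexes at any of the 3 stages. The supporting list's mean was 9.11 to 9.36 in XY and 9.40 to 9.52 in XX cells at TS13. It was 9.19 to 9.37 and 9.35 to 9.60 at TS24, and 8.71 to 8.86 and 9.08 to 9.24 at TS34. At TS13 and TS34 every XY array lay below every XX array for this list. The part of red cell or stromal RNA, or of the other marker shifts, in the members' differences was not tested.

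**Figure D3:**
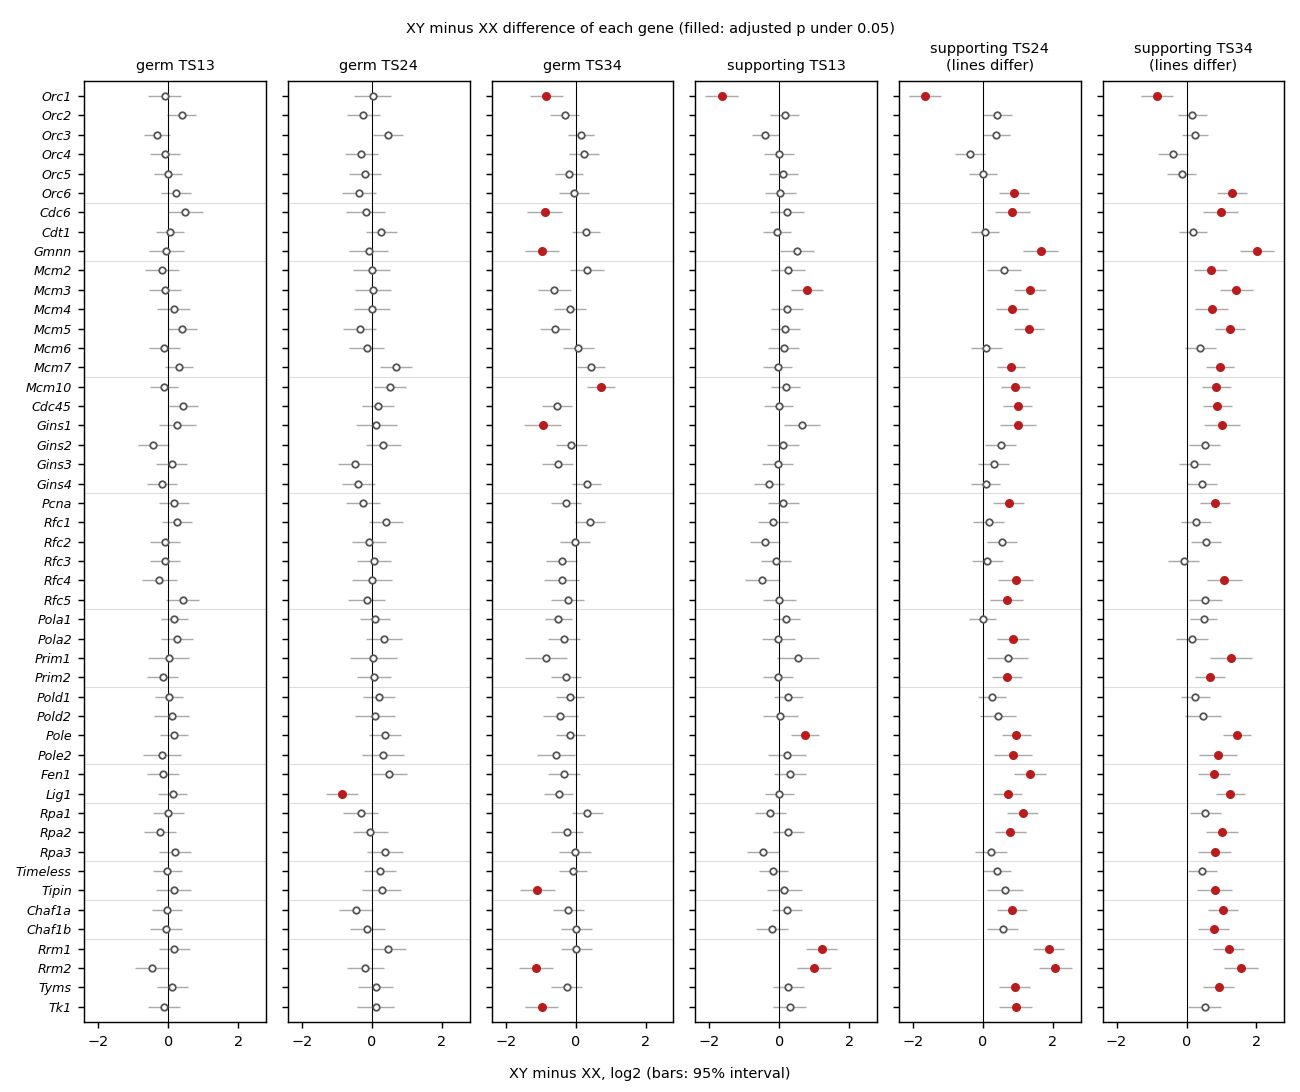
XY minus XX difference of each gene (log2, with its 95% interval) in germ cells (left 3 panels) and supporting cells (right 3 panels) at each stage; filled points passed at an adjusted p under 0.05. Supporting cells show 26 genes called higher in XY at TS24 and 27 at TS34, against 4 at TS13. Orc1 is called lower at all 3 stages, though at TS34 not in every run with 1 array left out.

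Supporting cells were also compared over time within each sex. In XY supporting cells 28 members rose from TS13 to TS24, beside 15.1% of all genes, and Orc1 fell, beside 1.70%. Rfc4 read 6.69, 8.03 and 6.65 at TS13 and 9.27, 8.45 and 8.44 at TS24. Every TS24 array was above every TS13 array, and the rise was 1.60 ± 0.25 (limma adjusted p = 3.65e-06). Gmnn rose by 1.32 ± 0.25, Mcm5 by 1.06 ± 0.21, Rrm2 by 1.04 ± 0.24, Rpa1 by 1.02 ± 0.22, the polymerase delta subunit Pold2 by 1.01 ± 0.25 and Cdc6 by 0.98 ± 0.25. Of the 6 clamp and clamp loader genes 5 rose, as did all 3 single-strand binding genes. The arrays as a whole shifted in this comparison, with a median of 0.22 over all genes against 0.63 over the members. Quantile normalization brought these medians to 0.01 and 0.38, with 14 members higher and 2 lower and with 1176 genes of the array higher and 803 lower in place of 2658 and 299. Without replicate 1 of XY supporting TS24, 18 members were called in place of 29. Mouse line changed between these stages and cannot be told apart from stage. Markers of other cells moved with this rise. The germ marker mean was 5.71 to 5.83 on the TS13 arrays and 5.97 to 6.07 on the TS24 arrays, without overlap, and 1 of the 10 germ markers, Dppa3, was called higher. The endothelial Cdh5, the erythroid Alas2 and the stromal Postn were also called higher, and the stromal Pdgfra and Nr2f2 lower. The list means were 5.89 to 6.17 and 6.17 to 6.42 for the endothelial list, 6.61 to 7.69 and 7.24 to 8.15 for the erythroid list, and 7.17 to 7.22 and 6.86 to 7.05 for the stromal list, at TS13 and TS24. Their part in the rise was not tested.

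From TS24 to TS34, within 1 line, no member rose in XY supporting cells, beside 0.159% of all genes, and Orc1 fell, beside 0.905%. The median was -0.23 over the members and -0.17 over all genes, and 40 of 48 members had a negative difference. Orc1 fell by 0.89 ± 0.23 (limma adjusted p = 0.0404) and was not called after quantile normalization, or without replicate 1 or 3 of XY TS24 or any 1 replicate of XY TS34. In all, 28 genes of the array rose and 159 fell, and 71 and 78 after quantile normalization. From TS13 to TS34, 9 members were higher, beside 7.39%, and 1 was lower, beside 2.64%. The 9 were Gmnn (1.25 ± 0.25), Rpa3 (1.10 ± 0.23), Rfc4 (1.08 ± 0.25), Rpa2, Tipin, Pole, Rfc5, Cdc45 and Mcm5, and the median was 0.41 over the members and 0.03 over all genes. The count of 10 called members was 5 without replicate 3 of XY supporting TS13 and 6 without replicate 3 of XY supporting TS34. Over the whole array 1298 genes rose and 463 fell in this comparison, and 1197 and 717 after quantile normalization.

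In XX supporting cells, all of 1 line, most members changed little from a low level. Orc1 instead began at a group mean of 10.39, its highest in any group, and fell by 2.55 from TS13 to TS34. From TS13 to TS24 no member rose, beside 2.60% of all genes, and Orc1 fell, beside 0.768%. From TS24 to TS34 none rose, beside 0.176%, and Orc1 and Lig1 fell, beside 0.467%. From TS13 to TS34 Orc5 rose by 0.69 ± 0.20, beside 2.66%, and 3 members fell, beside 1.97%: Orc1, Orc6 by 0.86 ± 0.22 and Lig1 by 0.67 ± 0.21. The median over the members was -0.23 for the whole span, against -0.03 over all genes. These counts are small and 1 array decided some of them. The call from TS13 to TS24 was lost without replicate 3 of TS13 or replicate 1 of TS24. In at least 1 further run with 1 array left out the only call was a rise, so the Orc1 call was lost there too. The 2 calls from TS24 to TS34 became 1 without replicate 2 of TS24 or replicate 1 or 2 of TS34. The 4 calls over the whole span became 2 without any 1 replicate of TS13 or without replicate 1 of TS34, and 1 without replicate 2 of TS34. On the array as a whole 457 genes rose and 135 fell from TS13 to TS24 (328 and 247 after quantile normalization), and 31 rose and 82 fell from TS24 to TS34 (64 and 53).

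Orc1 stood apart from the other members in the supporting cells. It read 10.25, 10.45 and 10.46 in XX cells at TS13, 9.41, 9.91 and 9.30 at TS24 and 7.86, 7.41 and 8.25 at TS34. In XY cells it read 9.14, 8.64 and 8.46, then 8.35, 7.52 and 7.78, then 6.79, 7.24 and 6.95. The level thus stepped down at each stage in both sexes, and no XY array reached an XX array of the same stage. Mouse line changed in the XY cells after TS13. It cannot be told apart from stage there, or from sex at TS24 and TS34. The Orc1 call from TS13 to TS24 in XY cells was lost in at least 1 run with 1 array left out. The whole fall was 2.55 ± 0.23 in XX cells (limma adjusted p = 5.16e-12) and 1.75 ± 0.23 in XY cells (limma adjusted p = 1.21e-07). At TS13 the XX supporting cells had the highest Orc1 of any group, above all germ cell arrays, which ran from 8.31 to 9.99. In XX cells the change from TS13 to TS34 differed between germ and supporting cells by 2.39 ± 0.33 (limma adjusted p = 5.35e-07), since XX germ cells held at 9.55, 9.62 and 9.38 in the group means. Orc1 has 1 probe set here, and no second one was at hand to compare.

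**Figure D4:**
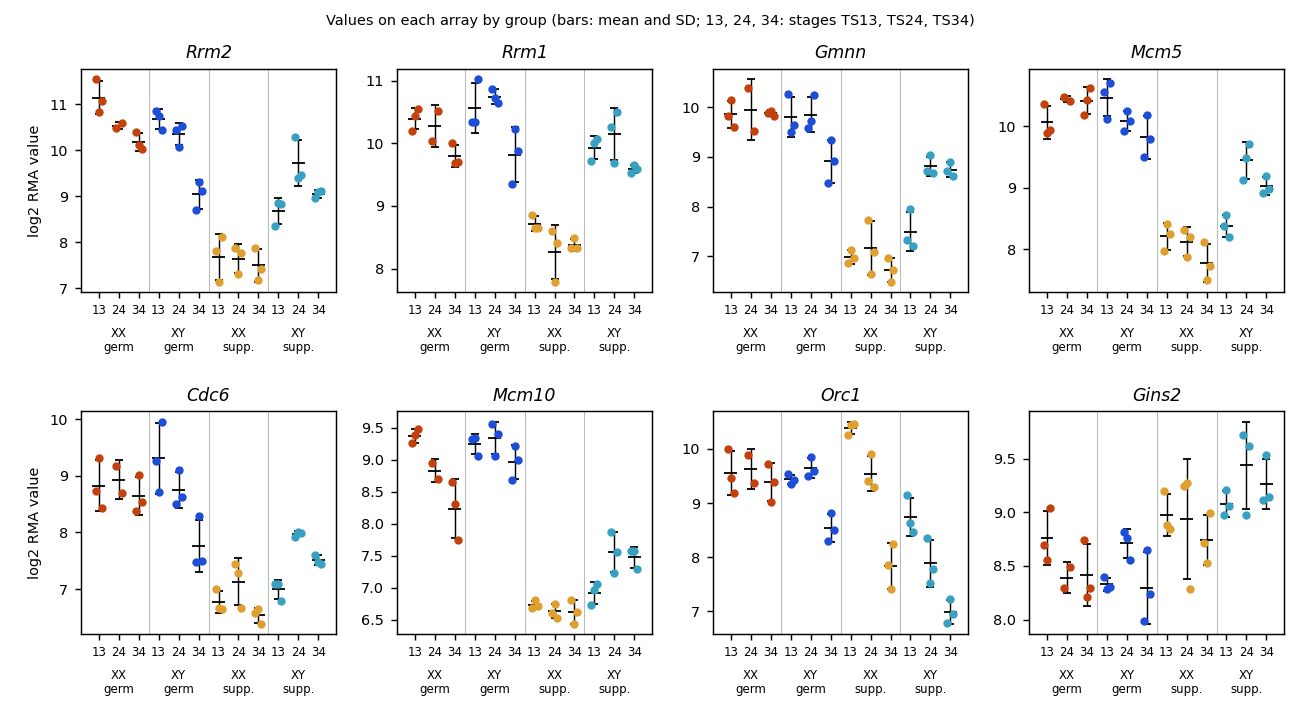
Log2 values on each array (points) for 8 genes in the 12 groups, with the mean and SD of each group; 2 arrays in XX germ TS24 and 3 elsewhere. Rrm2, Rrm1, Gmnn, Mcm5 and Cdc6 are higher in XY than in XX supporting cells at the later stages, Mcm10 steps down in XX germ cells, Orc1 steps down in supporting cells of both sexes, and Gins2 is no higher in germ than in supporting cells.

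Germ cells of the sexes were not told apart by these genes at the first stages. At TS13 no member differed between XY and XX germ cells by limma, beside 0.0285% of all genes higher and 0% lower, and 1 member had an unadjusted p under 0.05. Among all genes 5 were higher and 0 lower, and 5 and 1 after quantile normalization. At TS24 no member was higher in XY, beside 0.495%, and Lig1 was lower by 0.86 ± 0.23, beside 1.46% (limma adjusted p = 0.0327). XX TS24 has 2 arrays in this comparison, which read 10.79 and 11.06 for Lig1, while the XY arrays read 9.87, 9.90 and 10.44. The Lig1 call was lost without either XX TS24 array, without XY TS24 replicate 1 and without XY TS24 replicate 2, and it was lost with all 36 arrays, where the value was -0.29.

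Between TS13 and TS24 no member changed in germ cells of either sex by limma. In XX germ cells 0.979% of all genes rose and 0.233% fell, and 6 members had an unadjusted p under 0.05. In XY germ cells 0.837% rose and 0.660% fell, and 4 members had an unadjusted p under 0.05. The median change was 0.06 over the members in XX and 0.05 in XY germ cells. Over the whole array 172 genes rose and 41 fell in XX germ cells, and 192 and 103 after quantile normalization.

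By TS34 part of the members had fallen in XX germ cells. From TS24 none rose, beside 1.86% of all genes, and 7 of 48 fell, beside 7.02%. The array as a whole also shifted, with a median of -0.15 over all genes against -0.26 over the members. The 7 were Rpa1 (-1.22 ± 0.24), Orc4 (-0.94 ± 0.24), Mcm4, Mcm2, Chaf1b, Chaf1a and Gins4. The count was 3 and 4 without XX TS24 replicate 1 or 2, and 11, 2 and 1 without XX TS34 replicate 1, 2 or 3. Over the whole array 327 genes rose and 1233 fell, and 818 and 800 after quantile normalization, where 3 members fell.

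From TS13 to TS34, 8 members fell in XX germ cells, beside 10.9% of all genes, and Gins3 rose by 0.78 ± 0.22, beside 6.64%. The median was -0.20 over the members and -0.14 over all genes, and 39 members were not called. Mcm10, the helicase activator, read 9.26, 9.39 and 9.48 at TS13 and 8.66, 8.30 and 7.75 at TS34. Rpa1 read 10.27, 10.13 and 9.77 at TS13 and 9.44, 8.63 and 8.79 at TS34. Neither gene's stages overlapped, and they fell by 1.14 ± 0.20 (limma adjusted p = 2.97e-05) and 1.10 ± 0.22 (limma adjusted p = 0.000159). Rrm2 fell by 0.97 ± 0.24, Mcm2 by 0.87 ± 0.24, Mcm7 by 0.81 ± 0.20, Cdt1 by 0.72 ± 0.20, Mcm4 by 0.70 ± 0.23 and Tyms by 0.69 ± 0.22. Prim1 read 11.06, 11.47 and 11.07 and Tipin 11.40, 11.68 and 11.54 at TS34, the highest group means of both genes. The count of 9 called members was 16 without XX germ TS34 replicate 1 and 5 without replicate 3. After quantile normalization 7 members rose and 8 fell, with 2020 genes of the array higher and 1742 lower in place of 1166 and 1907. Markers moved in the same cells over the same span. All 4 meiotic entry markers (Stra8, Rec8, Meioc and Sycp3) were higher at TS34 than at TS13. Of 10 germ cell markers Pou5f1, Nanos3, Sox2, Dnd1, Prdm1 and Tfap2c were lower and Ddx4 and Dazl higher, and the list mean was 9.82 to 10.00 at TS13 and 8.98 to 9.41 at TS34. Markers of other cells that were lower were Hba-x and Hbb-y of the erythroid list, Cdh5 of the endothelial, Nr2f2 of the stromal and Nr0b1 of the supporting list. The erythroid mean was 7.07 to 7.62 at TS13 and 6.21 to 6.59 at TS34, and the endothelial mean 6.68 to 6.86 and 6.17 to 6.52. The part of these shifts in the members' changes was not tested.

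In XY germ cells, too, a number of the members had fallen by TS34. From TS24 to TS34 none rose, beside 0.985% of all genes, and 10 fell, beside 1.75%, and 47 of 48 members had a negative difference. The median was -0.52 over the members and -0.08 over all genes. From TS13 to TS34 none rose, beside 3.33%, and 16 fell, beside 4.81%, with a median of -0.46 against -0.04. Rrm2 read 10.86, 10.74 and 10.45 at TS13, 10.44, 10.07 and 10.53 at TS24 and 8.69, 9.32 and 9.12 at TS34. Cdc6, a loader of the helicase, read 9.27, 8.71 and 9.96 at TS13, 8.51, 9.11 and 8.62 at TS24 and 7.48, 8.30 and 7.50 at TS34. In both genes every TS34 array was below every earlier array. Rrm2 fell by 1.64 ± 0.24 from TS13 (limma adjusted p = 1.08e-06) and Cdc6 by 1.55 ± 0.25 (limma adjusted p = 7.23e-06).

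All 4 deoxynucleotide genes were among the 16, with Tyms at -1.05 ± 0.22, Rrm1 at -0.74 ± 0.22 and Tk1 at -0.72 ± 0.23. With the mean of both Tk1 probe sets the Tk1 call was lost (-0.46, limma adjusted p = 0.222). Of the helicase genes Mcm4 fell by 1.01 ± 0.23, Mcm7 by 0.69 ± 0.20 and Mcm5 by 0.64 ± 0.21. The others were Orc1, Gmnn, Orc6, Cdc45, Rpa1, Tipin, Pola2 and Rfc3. None of the 4 polymerase delta and epsilon genes, of the flap and ligation genes or of the chromatin assembly genes passed. One array weighed on these counts. XY germ TS34 replicate 1 had a median over all genes of -0.27 after centring, against 0.15 and 0.16 in replicates 2 and 3, and its member median was -0.03 against 0.55 and 0.33. Without it 4 members were called from TS13 and 2 from TS24. The count from TS13 was 10 without XY TS13 replicate 1 and 6 without XY TS13 replicate 3, and that from TS24 was 6 without XY TS24 replicate 3. Centring every array on its median gave 17 members lower from TS13 and 12 from TS24, and quantile normalization 13 and 8, with 918 genes of the array higher and 866 lower from TS13 (585 and 845 as deposited) and 303 and 242 from TS24 (173 and 307 as deposited). Markers moved over the span from TS13 to TS34 as well. Of the germ cell markers Sox2, Kit and Tfap2c were lower and Ddx4 higher, and Nanos2 and Piwil4 of the male germ fate list and Sycp3 of the meiotic list were higher. From the lists for other cells, Hbb-y, Pecam1, Nr2f2 and Nr0b1 were lower. Pecam1 of the endothelial list was itself higher in germ than in supporting cells, averaged over sexes and stages. The erythroid mean was 7.03 to 7.79 at TS13 and 6.23 to 6.81 at TS34, the endothelial mean 6.53 to 6.90 and 6.01 to 6.44, and the germ marker mean 9.64 to 10.09 and 9.28 to 9.85. The part of these shifts in the members' fall was not tested.

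At TS34 the sexes of the germ cells differed in 8 members. XY cells were higher in 1, beside 6.04% of all genes, and lower in 7, beside 4.46%, with a median of -0.25 over the members and 0.06 over all genes. Rrm2 read 10.39, 10.12 and 10.03 in XX cells, all above the XY arrays, and was 1.13 ± 0.24 lower in XY (limma adjusted p = 0.000566). Tipin was lower by 1.09 ± 0.25, Tk1 by 0.97 ± 0.23, Gmnn by 0.97 ± 0.25, Gins1 by 0.94 ± 0.26, Cdc6 by 0.89 ± 0.25 and Orc1 by 0.84 ± 0.23. The Tk1 call was lost with the mean of its probe sets (-0.59, limma adjusted p = 0.0644). Mcm10 was higher in XY cells by 0.73 ± 0.20, with arrays from 8.68 to 9.21 against 7.75 to 8.66, so the sexes nearly met but did not overlap. The Mcm10 call was lost in at least 1 run with 1 array left out. The count was 4 without XY germ TS34 replicate 1, and 14 after quantile normalization. Beside these members all 4 meiotic entry markers were lower in XY cells, Pou5f1, Nanos3, Dnd1 and Prdm1 of the germ cell list were higher and Kit lower, and no erythroid, endothelial, stromal, macrophage or supporting cell marker was called.

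Tests of the differences between these courses named fewer members. Among germ cells the sex difference, XY minus XX, was lower at TS34 than at TS13 for Cdc6 (-1.37 ± 0.35), Tipin (-1.24 ± 0.36) and Mcm5 (-0.99 ± 0.29), 3 members beside 1.87% of all genes, and higher for none, beside 1.82%. This count was 0 to 1 without XX TS13 replicate 3, XY TS13 replicate 1 or 3, XX TS34 replicate 2 or 3, or XY TS34 replicate 3, and was 6 and 5 without replicate 2 of XY TS13 and of XY TS34. In supporting cells the XY minus XX difference was higher at TS34 than at TS13 for 7 members, beside 3.11%, and lower for none, beside 1.77%. They were Rfc4 (1.56 ± 0.35), Gmnn (1.51 ± 0.35), Orc6 (1.27 ± 0.31), Rpa3 (1.27 ± 0.32), Lig1 (1.25 ± 0.29), Mcm5 (1.08 ± 0.29) and Mcm7 (1.01 ± 0.28), again with the change of line in the XY cells.

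The change from TS13 to TS34 was also set between the cell types. In XX fetuses it was higher in germ than in supporting cells for Orc1 and Lig1 (1.07 ± 0.29), beside 3.81% of all genes, and lower for Mcm10 (-1.03 ± 0.29), beside 6.31%. The median was -0.08 over the members and also -0.08 over all genes. Without XX germ TS34 replicate 1 this count of 3 was 8. In XY fetuses it was higher for no member, beside 2.97%, and lower for 21, beside 8.23%, with a median of -0.88 over the members and -0.07 over all genes. The largest differences were those of Gmnn (-2.14 ± 0.35, limma adjusted p = 1.03e-05), Cdc6 (-2.07 ± 0.35, limma adjusted p = 1.82e-05) and Rrm2 (-2.02 ± 0.34, limma adjusted p = 1.5e-05). For Gmnn the XY germ cell means went from 9.80 to 8.91 and the XY supporting cell means from 7.50 to 8.74, so the cell types approached each other. After quantile normalization 1 member was higher and 18 were lower, with 900 genes of the array higher and 1248 lower in place of 521 and 1446. The XY supporting cells again changed line between these stages.

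Other genes of the same pathways were read from a list of 72 genes outside the members, of which 70 were tested. In germ against supporting cells 61 were higher and 4 lower, beside 32.9% and 20.3% of all genes. The higher genes included all 6 of primer and flap processing. They also included all 12 of a list of firing and checkpoint genes that holds Mcm8, Mcm9 and Mcmbp as well. In XY against XX supporting cells 23 of the 70 were higher and 1 lower at TS24, beside 9.75% and 5.58%, and 22 and 1 at TS34, beside 8.24% and 5.74%. Both genes of maintenance methylation at the fork, Dnmt1 and Uhrf1, were higher at both stages, as were 4 of 6 primer and flap processing genes (Dna2, Exo1, Rnaseh2a and Rnaseh2c). Samhd1, which degrades deoxynucleotides, was the 1 gene lower at all 3 stages. Among 13 E2F and RB control genes E2f2, E2f7 and E2f8 were higher in XY supporting cells at TS24. In XY germ cells 10 of the 70 fell from TS13 to TS34, E2f2, E2f7 and E2f8 among them, beside 4.81% of all genes, and 2 rose (2.86% of the 70), beside 3.33%. In XX germ cells 14 fell (20.0% of the 70) and 4 rose (5.71%) over that span, beside 10.9% and 6.64% of all genes, so the share that rose was near that of the array. Of the fallen, 8 came from the 23 tested genes of other nucleotide synthesis, among them Mthfd1, Ppat, Gart, Paics and Atic of purine and folate metabolism.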

How the data were processed

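RNA of 36 sorted cell samples was read on 1 microarray platform. The deposited values are on the log2 scale and were made by the authors with RMA (robust multi-array averaging), per the submitters' processing notes; the software, its version, the probe set definition and the genome build were not given in the sources used here. Of 35557 probe sets, 21789 had 1 gene symbol, 1621 several and 12147 none. For 21698 of the 21789 the symbol was looked up in RefSeq by Entrez ID, whether or not it changed. The other 91 kept the platform's symbol, and 19938 genes resulted. Genes above the 25th percentile of their array on at least 3 arrays were tested (17571). The 12 group means were fitted to 35 arrays with limma 3.58.1 in R 4.3.3 (lmFit, eBayes), and 23 comparisons were adjusted by Benjamini-Hochberg over all genes tested, at 0.05. The script was tested on simulated data. The 3 arrays per group limit the precision: the median SE was 0.21 for 3 against 3 arrays and 0.24 for 2 against 3. Differences of log2 values carry their SE. Alternatives were all 36 arrays, quantile normalization, median centring, other filters, the mean of all probe sets, a replicate block and leaving out each array. Members and lists were chosen with earlier results of these data known. Every member could be named; in each comparison values are given for the called members of largest difference, up to 8 in each direction, and by sample for the largest. Orc1, Orc4, Gins2, Tk1 and members that did not pass were singled out after their values were seen, as were genes outside the members named with the pathway counts. Promoter sequences are from RefSeq.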

Additional observations from a re-analysis of the deposited data

Results flagged for a closer look

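A test of the difference between 2 groups' effects passed for 34 member results, by limma with adjusted p under 0.05. Among germ cells the sex difference, XY minus XX, was lower at TS34 than at TS13 for Cdc6 (-1.37), Tipin (-1.24) and Mcm5 (-0.99). In supporting cells the same difference was higher at TS34 for Rfc4 (1.56), Gmnn (1.51), Orc6 (1.27), Rpa3 (1.27), Lig1 (1.25), Mcm5 (1.08) and Mcm7 (1.01). Mcm5 was thus named in both cell types, with opposite signs, and these differences were not tested against each other. The germ cell count ran from 0 to 6 with 1 array left out at a time, and the XY supporting cells changed line.

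The change from TS13 to TS34 in germ minus that in supporting cells was higher in XX fetuses for Orc1 (2.39) and Lig1 (1.07) and lower for Mcm10 (-1.03). In XY fetuses it was lower for 21 members. The helicase, its loading and its activation gave Gmnn (-2.14), Cdc6 (-2.07), Cdc45 (-1.47), Mcm4 (-1.29), Mcm5 (-1.28), Mcm7 (-1.26), Orc6 (-1.25) and Mcm10 (-0.84). The clamp, its loader and single-strand binding gave Rpa3 (-1.63), Rfc4 (-1.50), Rfc5 (-1.37), Rpa1 (-1.27), Rfc3 (-1.11), Rfc2 (-1.06) and Pcna (-0.90). Nucleotide supply gave Rrm2 (-2.02), Tyms (-1.34) and Tk1 (-1.24), and the remaining roles gave Tipin (-1.55), Pola2 (-1.03) and Fen1 (-1.02).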

How the results depend on the processing

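No called member changed sign under any alternative run. Of the 239 member calls, 174 passed with all 36 arrays, 209 after quantile normalization, 227 after median centring, 238 with no filter, 239 with the filter at the 50th percentile, 235 with the mean of all probe sets and 232 with the replicate block. The counts of called members that moved are as follows, and the cause was not tested. With all 36 arrays, XY minus XX gave 3 in germ cells at TS24, 4 at TS34 and 3 in supporting cells at TS13. The stage steps gave 1 (XX germ, TS13 to TS24), 4 (XX germ, TS24 to TS34), 6 and 8 (XY germ, TS34 against TS24 and TS13), 0, 1 and 2 (XX supporting, TS13 to TS24, TS24 to TS34 and TS13 to TS34) and 0 and 4 (XY supporting, TS34 against TS24 and TS13). The differences between courses gave 0 (sex by stage in germ cells), 2 (the same in supporting cells) and 1 (cell type by stage in XX). Quantile normalization and median centring gave 2 and 2 for XY minus XX germ cells at TS24, 14 and 13 at TS34, 3 and 4 for XX germ TS24 to TS34, 0 and 0 for XY supporting TS24 to TS34, 5 and 6 for sex by stage in germ cells and 5 and 6 for cell type by stage in XX. Quantile normalization gave 15 for XX germ TS13 to TS34 and 16 for XY supporting TS13 to TS24, and median centring gave 16 for XY supporting TS13 to TS34.

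With 1 array left out at a time the counts for XY minus XX ran from 0 to 1 (germ, TS24), 4 to 10 (germ, TS34) and 3 to 5 (supporting, TS13). For the stage steps they ran from 1 to 11 (XX germ, TS24 to TS34), 5 to 16 (XX germ, TS13 to TS34), 2 to 15 (XY germ, TS24 to TS34), 4 to 18 (XY germ, TS13 to TS34), 0 to 1, 1 to 3 and 1 to 4 (XX supporting, TS13 to TS24, TS24 to TS34 and TS13 to TS34), and 18 to 28, 0 to 1 and 5 to 10 (XY supporting, the same steps). For sex by stage in germ cells they ran from 0 to 6 and for cell type by stage in XX from 2 to 8. The replicate block gave, for example, 47 members called between the cell types, 27 and 28 for XY minus XX supporting cells at TS24 and TS34, and 14 for XY germ TS13 to TS34; no count moved by over 1.5 times. The replicate numbers did not pair the samples: every correlation of same-numbered deviations was over 0.1 in 3 of 66 pairs of groups, and the median was -0.01.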

Other observations

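The array that was left out, XX germ TS24 replicate 3, had values between those of the 2 sorted cell types for most members. Its markers do not place it between them, since its stromal and interstitial mean of 9.38 was above that of every other array. Its endothelial mean of 7.38 was likewise the highest of all arrays. Its values were below both kept arrays of its group for 37 of 48 members, with a median difference of -0.80 from their mean and of 0.80 from the XX supporting TS24 mean. Rpa2 read 8.45, against a mean of 10.26 on the kept germ arrays and 7.89 in XX supporting cells. Rrm2 read 10.51, against 10.54 and 7.65, so this gene was at the germ cell level there. Gins2 read 9.27, against 8.39 and 8.93, and Tk1 read 9.75, against 8.83 and 8.06.

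Of the members, 3 had a second probe set. Over the 35 arrays the probe sets of Pcna and Rpa3 ran together (r = 0.947 and 0.953), while those of Tk1 ran together less closely (r = 0.655). The Tk1 probe set used had group means of 9.14 in XX and 8.17 in XY germ cells at TS34, and the other had 8.04 and 7.83. Which of them reads the Tk1 transcript alone was not tested.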
